A study of Mus musculus with 16 samples.

Results

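A set of 10 genes of the distal nephron and collecting duct was followed in induced pluripotent stem cells (iPSCs) made from a kidney cell and from a skin cell. They were chosen by gene name, and all 10 had a row among the 55471 genes of the methylation table and among the 43984 genes of the histone table. Umod, Slc12a1 and Kcnj1 belong to the thick ascending limb, Slc12a3 and Calb1 to the distal convoluted and connecting tubule, Aqp2, Aqp3, Scnn1a and Scnn1b to the principal cell, and Atp6v1b1 to the intercalated cell.

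The distal nephron takes up the last salt, calcium and water from the urine and sets its acidity. The thick ascending limb and the distal convoluted tubule carry salt through cotransporters, while principal cells of the collecting duct move sodium and water under aldosterone and vasopressin, and intercalated cells secrete acid or base. Most of these genes are active in 1 or a few cell types of the adult kidney, and several serve as markers of their segment. H3K4me3 marks the start of active or poised genes, H3K36me3 lies over gene bodies that RNA polymerase travels through, H3K27me3 marks repressed genes, and methylation of CpGs at a promoter accompanies silencing.

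The study compared early passage iPSCs from proximal tubule cells (PTC iPSCs) with those from tail tip fibroblasts (TTF iPSCs), to ask whether the cell of origin leaves a trace. There were 16 libraries in 4 assays, from the clonal lines PTC11, PTC12, TTF1 and TTF4, that is 2 per origin. All lines came from young adult mice heterozygous for 4 transgenes, namely SLC34a1-GCE, a tdTomato reporter, rtTAROSA (neo-in) and OKMS-250, in which doxycycline switches on the reprogramming factors after Cre has removed a neo cassette. In PTC iPSCs the Cre (CreERt2) was driven by SLC34a1, a proximal tubule gene, and activated by tamoxifen in the mouse. The methods describe tamoxifen food for the mice from which kidneys and tail tips were taken, without separating the origins. The proximal tubule cells were sorted as tdTomato+/GFP+ after culture of cortical tubules. In TTF iPSCs the Cre was given in culture on a non-integrating plasmid, so that origin and route of Cre cannot be told apart. Each line is 1 clone, kept on embryonic fibroblast feeder cells and free of doxycycline. The sources name separate mice but not which line came from which mouse, and a p-value here measures only the spread between lines.

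Methylation was the fraction of methylated CpGs within 1 kb of the transcription start site (TSS), read by nanopore sequencing. The histone values were RPKM (reads scaled to the length of the peak and the depth of the library) minus input. They were averaged over peaks at the TSS for H3K4me3 and H3K27me3, and along the whole gene in the case of H3K36me3, and a gene without a peak in a line has no value there. The tables give no mapped reads or coverage per gene, so the depth behind each value is unknown and no counting interval is given, although the methods name a common number of sequenced reads for the ChIP-seq samples. The lines differed across the whole genome. The mean fraction over all genes was 0.372 in PTC11 and 0.482 in PTC12, against 0.379 in TTF1 and 0.649 in TTF4, H3K4me3 was present at 56.9% to 67.5% of listed protein-coding genes, and the median H3K36me3 value was 1.18 to 4.01 RPKM. Of 12 pluripotent cell markers, 9 carried H3K4me3 in all 4 lines, while Esrrb, a pluripotency factor, had none. Zfp42 and Dppa4 lacked it in TTF4 alone, where their methylated fractions, 0.803 and 0.759, were above those of the other lines. By line, H3K4me3 was present at 11 of these markers in each of PTC11, PTC12 and TTF1 and at 9 in TTF4. Of 11 fibroblast and feeder cell markers, PTC11 carried it at 2, PTC12 at 6, TTF1 at 6 and TTF4 at 5, and the part of feeder cells in the values below was not tested. All of these are bulk values, in which a middling fraction from every cell and a mixture of methylated and unmethylated cells or alleles cannot be told apart.

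The promoters of these genes held few CpGs compared with most protein-coding genes. Within 1 kb of the TSS the 10 genes had 5 to 72 CpGs with a median of 32.5, against 65 for protein-coding genes and 27 for all genes. A few stretches of sequence just upstream of the TSS show how far the promoters differ. They are given 5′ to 3′ on the strand of the gene, from RefSeq on GRCm38.p6, the sequence of mm10, with every CpG in capitals and with no transcribed base. Aqp3, on the minus strand (chr4:41098184-41098433), is shown because it had the lowest mean methylation, Slc12a1 on the plus strand (chr2:125152350-125152504) the highest, and Atp6v1b1 on the plus strand (chr6:83742767-83742989) the widest range between lines. Umod, on the minus strand (chr7:119479283-119479512), was added after its values were seen, as the gene with the fewest CpGs.
Aqp3: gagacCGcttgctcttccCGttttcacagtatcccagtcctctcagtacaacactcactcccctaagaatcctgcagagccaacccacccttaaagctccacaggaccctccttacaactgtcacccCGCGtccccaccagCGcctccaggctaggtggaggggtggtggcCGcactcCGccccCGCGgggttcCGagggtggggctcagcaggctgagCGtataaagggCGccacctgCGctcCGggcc
Slc12a1: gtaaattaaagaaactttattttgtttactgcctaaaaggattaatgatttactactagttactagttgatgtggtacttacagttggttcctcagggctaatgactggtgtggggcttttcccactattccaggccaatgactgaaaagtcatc
Atp6v1b1: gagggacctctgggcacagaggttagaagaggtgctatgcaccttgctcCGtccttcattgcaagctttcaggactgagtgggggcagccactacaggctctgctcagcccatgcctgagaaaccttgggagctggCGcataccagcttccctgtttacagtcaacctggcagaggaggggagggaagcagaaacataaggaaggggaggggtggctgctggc
Umod: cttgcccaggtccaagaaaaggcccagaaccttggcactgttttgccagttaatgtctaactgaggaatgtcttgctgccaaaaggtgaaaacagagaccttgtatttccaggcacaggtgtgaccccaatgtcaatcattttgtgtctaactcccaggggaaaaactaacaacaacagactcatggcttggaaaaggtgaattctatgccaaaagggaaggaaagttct

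The Aqp3 stretch of 250 bases holds 14 CpGs, many of them close to the start. In contrast, the 155 bases of Slc12a1 and the 230 bases of Umod hold none, and the 223 bases of Atp6v1b1 hold 2. RefSeq windows of 300 bases, from 250 before to 50 after the RefSeq start, were found for 8 of the 10 genes, the exceptions being Calb1 and Scnn1a. A search for CG, which reads the same on both strands, counted 21 in Aqp3, 10 in Scnn1b, 8 in Aqp2, 5 in Slc12a1, 4 in Slc12a3, 3 in Atp6v1b1, 2 in Kcnj1 and 0 in Umod. Of all 32851 such windows 94.6% hold at least 1 CG, with a median of 7, so that Umod is among the 5.43% with none. The RefSeq start of Kcnj1 lies 21492 bp downstream of the TSS used for its methylation value, and its window therefore describes another start.

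The fuller map of CpGs around each TSS shows where these CpGs lie. Umod has no CpG within 250 bp of the TSS, the nearest being 444 bp away. Scnn1a likewise has 0 within 250 bp and the nearest at 303 bp, although 29 lie within 1 kb, 23 of them downstream. Calb1 and Aqp3 each have 33 within 250 bp, Scnn1b has 25, Aqp2 19, Slc12a3 14, Kcnj1 8, Atp6v1b1 7 and Slc12a1 6. A fraction for Umod thus rests on at most 5 CpGs and one for Aqp3 on at most 72.

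**Figure D1:**
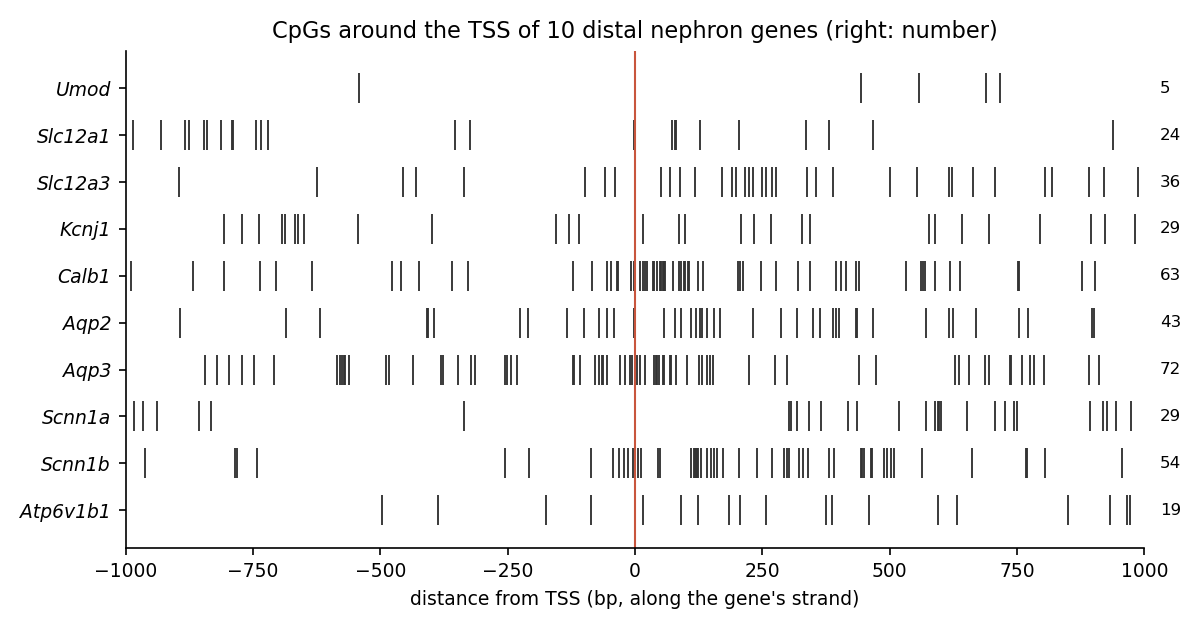
Each vertical line is 1 CpG of the reference sequence, placed by its distance from the TSS in bp (x axis, negative upstream) for each of the 10 genes (rows), and the number at the right counts them. Calb1, Aqp3 and Scnn1b have CpGs clustered at the TSS, while Umod and Scnn1a have none within 250 bp of it.

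Promoter methylation of the 10 genes was high in TTF4 and varied between lines of the same origin. TTF4 had the highest fraction of the 4 lines in 10 of 10 genes, which held for 75.4% of all 50657 genes with 4 values. No gene of the 10 differed between TTF and PTC iPSCs in limma at an adjusted p under 0.05, and none did at an unadjusted p under 0.05. Across all genes limma called 2, or 0.00395%, and 2392 had an unadjusted p under 0.05. With 2 lines against 2, an exact two-sided permutation test cannot give a p below 0.33.

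Umod (chr7:119462711-119479282, minus strand) encodes uromodulin, the most abundant protein of normal urine. Its fraction was 0.237 in PTC11 and 0.618 in PTC12, against 0.675 in TTF1 and 0.911 in TTF4. TTF1 and TTF4 were the highest pair, and PTC11 stood far below the rest.

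Slc12a1 (chr2:125152505-125230002, plus strand) encodes the loop diuretic-sensitive cotransporter of sodium, potassium and chloride. Methylation there was 0.748 in PTC11 and 0.530 in PTC12, against 0.671 in TTF1 and 0.797 in TTF4. This was the gene with the smallest spread, every line being above 0.5, and the origins overlapped. Kcnj1 (chr9:32372493-32399197, plus strand), whose potassium channel ROMK recycles potassium for that cotransporter, had 0.486 in PTC11 and 0.752 in PTC12, against 0.476 in TTF1 and 0.812 in TTF4. Here 1 line of each origin was high and 1 was lower.

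Slc12a3 (chr8:94329201-94366214, plus strand) encodes the thiazide-sensitive sodium chloride cotransporter. Its fractions were 0.655 in PTC11 and 0.514 in PTC12, against 0.559 in TTF1 and 0.811 in TTF4. Calb1 (chr4:15881264-15908064, plus strand), which makes the calcium buffer calbindin, had 0.375 in PTC11 and 0.475 in PTC12, against 0.312 in TTF1 and 0.634 in TTF4. The origins overlapped for both genes, and in both TTF4 was the highest line.

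Aqp2 (chr15:99579055-99584547, plus strand) encodes the water channel that vasopressin brings to the apical membrane. It had 0.539 in PTC11 and 0.415 in PTC12, against 0.641 in TTF1 and 0.922 in TTF4, so that TTF1 and TTF4 were again the highest pair. Aqp3 (chr4:41092722-41098183, minus strand) encodes a basolateral channel for water and glycerol that other epithelia also use. Its promoter was nearly free of methylation in PTC11 at 0.0512 and in TTF1 at 0.0394, but reached 0.289 in PTC12 and 0.646 in TTF4. The printed CpG-rich stretch lies in a promoter with 1 sparsely and 1 more densely methylated line of each origin.

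The epithelial sodium channel is represented by its alpha subunit, Scnn1a (chr6:125320659-125344943, plus strand), and its beta subunit, Scnn1b (chr7:121865038-121918514, plus strand). Scnn1a had 0.342 in PTC11 and 0.179 in PTC12, against 0.358 in TTF1 and 0.862 in TTF4. Scnn1b had 0.271 in PTC11 and 0.338 in PTC12, against 0.385 in TTF1 and 0.917 in TTF4. In both genes the TTF lines lay above the PTC lines, but TTF1 did so narrowly and TTF4 by a wide margin.

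Atp6v1b1 (chr6:83742990-83758855, plus strand) encodes the B subunit isoform of the proton pump that intercalated cells use to acidify urine. It ranged from 0.202 in TTF1 to 0.944 in TTF4, with 0.706 in PTC11 and 0.429 in PTC12. The TTF lines were its lowest and its highest, so that the PTC lines lay between them. According to GENCODE M21 all 10 genes are protein coding, and each TSS lies in an exon, in an untranslated region.

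**Figure D2:**
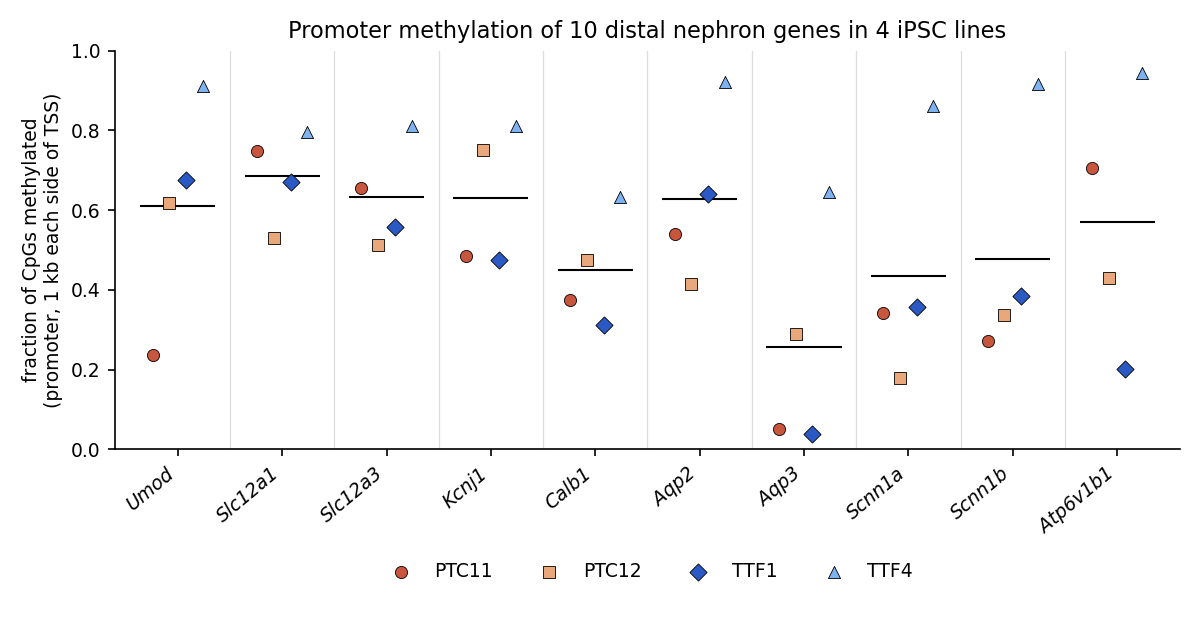
Points give the fraction of methylated CpGs within 1 kb of the TSS (y axis, 0 to 1) in each of the 4 lines for each gene, and black bars give the mean of the 4 lines. TTF4 is the highest point in 10 of 10 genes, and PTC11 and TTF1 are the lowest of Aqp3 at 0.0512 and 0.0394.

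By the mean of the 4 lines the order ran from Aqp3 at 0.256 ± 0.284 (SD, n = 4 lines), Scnn1a at 0.435 ± 0.296, Calb1 at 0.449 ± 0.141 and Scnn1b at 0.478 ± 0.296 to Atp6v1b1 at 0.570 ± 0.323 and Umod at 0.610 ± 0.280. Above these stood Aqp2 at 0.629 ± 0.216, Kcnj1 at 0.631 ± 0.175, Slc12a3 at 0.634 ± 0.131 and Slc12a1 at 0.687 ± 0.117. The widest step between neighbours was 0.179, from Aqp3 to Scnn1a, which is within the SD of either gene, and no other step exceeded 0.0924. These SDs hold shifts between lines that all the genes share, so they cannot show whether neighbours in this order differ. Differences between genes within a line were not tested. The median of these means was 0.590, against 0.235 for protein-coding genes and 0.544 for all genes. Ranked among all genes of its own line, the median gene of the 10 stood at percentile 56.3 in PTC11 and 41.7 in PTC12, against 56.6 in TTF1 and 63.0 in TTF4.

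Fewer CpGs went with more methylation among the 10 genes, with Pearson's r = -0.71 and Spearman's rho = -0.48 over genes that share the same 4 libraries. These are descriptions over genes, which are not replicates. The same relation over protein-coding genes had a rho of -0.83.

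**Figure D3:**
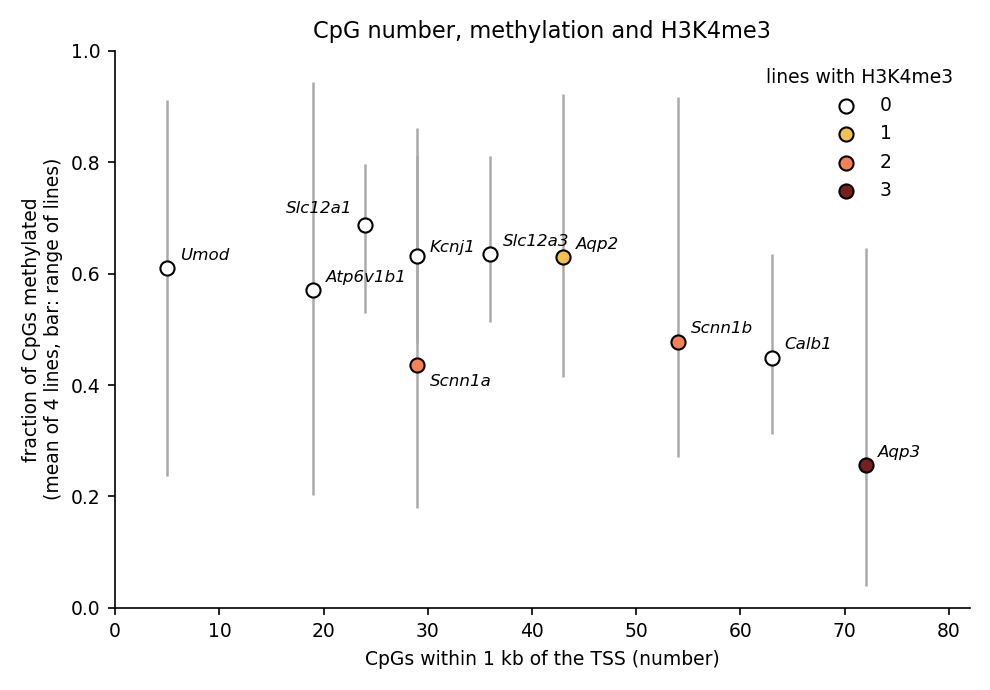
The x axis gives the number of CpGs within 1 kb of the TSS and the y axis the fraction methylated, with a point at the mean of the 4 lines, a bar over their range and a fill for the number of lines with H3K4me3. Aqp3, with 72 CpGs, has the lowest mean, at 0.256, and the only H3K4me3 in 3 lines, while Calb1, with 63, has none.

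Since TTF4 was high throughout, the origins were compared after the mean of each line was taken from its fractions. TTF1 and TTF4 were then the highest pair of lines in 4 of 10 genes, Umod, Aqp2, Scnn1a and Scnn1b, against 15.0% of all genes. In 1 of 10, Calb1, they were the lowest pair, against 12.8% of all genes, and in the other 5 the origins overlapped. Without TTF4 the count above was also 4, with TTF1 alone above both PTC lines, but that held for 34.8% of all genes. Leaving out a line cannot lower this count. Of the 4, 3 are genes of the principal cell, and the fourth principal cell gene, Aqp3, overlapped. Whether this goes with the segment was not tested.

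None of these differences passed the test. Umod was higher in TTF iPSCs by 0.279 (SE 0.158, 95% confidence interval -0.0380 to 0.595, unadjusted p = 0.0834 and adjusted p = 1.00 in limma). For Scnn1a the difference was 0.263 (SE 0.153, -0.0430 to 0.569), for Scnn1b 0.259 (SE 0.155, -0.0509 to 0.569) and for Aqp2 0.217 (SE 0.156, -0.0956 to 0.530). Of the remaining 6, Aqp3 gave 0.0853, Slc12a3 0.0133, Slc12a1 0.00847, Calb1 -0.0389, Kcnj1 -0.0623 and Atp6v1b1 -0.0818. The intervals of all 10 included 0. In 9 of 10 genes, Umod excepted, the larger gap between lines of 1 origin exceeded the difference between the means of the origins. Taking the larger gap favours that outcome by construction, and its share over all genes was not computed. The largest gap between lines of 1 origin was 0.471, in Atp6v1b1.

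Without TTF1, the TTF side is TTF4 alone, the most methylated line, and is assumed to vary like the PTC lines. The largest differences among the 10 genes were then 0.390 in Scnn1b, 0.380 in Scnn1a, 0.261 in Umod and 0.253 in Aqp3. Without PTC12, where PTC11 stands alone in the same way, the largest difference was that of Umod, at 0.414.

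H3K4me3 was found at few of these starts, and among the 10 genes only at those of principal cell genes. A wider list given below did not repeat that split. Of the 10 genes, 4 had a value in at least 1 line, against 70.1% of listed protein-coding genes, and 0 had one in all 4 lines, against 53.3%. PTC12 carried the mark at 4 of them, TTF1 at 3, PTC11 at 1 and TTF4 at 0. Since no gene had 4 values, none entered the limma comparison, which took genes with a value in every line.

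Aqp3 was marked in 3 lines, with 3.47 RPKM in PTC11, 3.87 in PTC12 and 3.42 in TTF1, and had no value in TTF4. The line without the mark was the one with the highest methylation, 0.646. Without TTF4, Aqp3 would be marked in every line, as 56.5% of protein-coding genes were.

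Scnn1a had 3.27 RPKM in PTC12 and 2.66 in TTF1, and Scnn1b had 3.81 in PTC12 and 4.87 in TTF1. Both subunits of the sodium channel were thus marked in 1 line of each origin, the same pair of lines. Aqp2 had a value in PTC12 alone, at 2.16 RPKM, and exactly that value stands in PTC12 at 2 other genes on other chromosomes. Among all genes with H3K4me3 in 1 to 3 lines, 78.0% had it in PTC12 and 79.4% lacked it in TTF4, and the part of peak calling in this pattern was not tested.

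Umod, Slc12a1, Kcnj1, Slc12a3, Calb1 and Atp6v1b1 had no H3K4me3 value in any line. These 6 had 5 to 63 CpGs and a mean methylation of 0.449 to 0.687, and the 4 marked genes 29 to 72 CpGs and 0.256 to 0.629, so the ranges overlapped. Calb1 stands out among the unmarked, with 33 CpGs around its TSS. For comparison, protein-coding genes without H3K4me3 in any line had a median of 15 CpGs and a median methylation of 0.596, and those with it in all 4 lines 94 CpGs and 0.120. H3K27me3 had a value at none of the 10 genes in any of its 4 libraries, which list only 11 to 144 genes each. Both PTC libraries of that mark carry the name of line PTC11.

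H3K36me3 was present over nearly all of the 10 gene bodies, at levels that differed between lines of the same origin. All 10 had a value in at least 1 line, against 88.8% of protein-coding genes, and 8 had one in all 4 lines, against 63.5%. Umod lacked a value in TTF1, and Slc12a3 lacked one in PTC12 and TTF4. In 8 of the 8 genes with 4 values, PTC12 and TTF4 lay above PTC11 and TTF1, as in 93.6% of all 17039 such genes, and the origins overlapped in each. For read coverage at Jag1 and Gata3, which are outside this set, the paper describes the reverse order, with PTC11 and TTF1 higher. The reason for this disagreement was not tested.

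Scnn1a had the highest mean of the 4 lines and the highest value in TTF4, but not in the other lines, with 2.13 RPKM in PTC11 and 5.88 in PTC12, against 1.10 in TTF1 and 8.14 in TTF4. Aqp2 had 1.46 in PTC11 and 7.41 in PTC12, against 1.63 in TTF1 and 4.32 in TTF4. Each of these genes was thus much higher in 1 line of an origin than in the other, Scnn1a most of all in TTF4 and Aqp2 in PTC12. Ranked within TTF4, Scnn1a stood at percentile 97.6 of genes with a value, and Aqp2 within PTC12 at 93.8.

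Scnn1b had 1.51 RPKM in PTC11 and 4.43 in PTC12, against 1.07 in TTF1 and 5.24 in TTF4. On the opposite strand the gene Cog7, which codes for a Golgi complex subunit, covers 39152 bases or 73.2% of Scnn1b. Cog7 had 1.63 in PTC11 and 4.28 in PTC12, against 1.17 in TTF1 and 3.71 in TTF4, slightly above Scnn1b in PTC11 and TTF1 and below it in PTC12 and, more so, in TTF4, and since ChIP reads carry no strand the 2 genes cannot be told apart where they overlap. Antisense genes likewise lie within Umod (Gm44588) and Slc12a1 (Gm14002).

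Aqp3 had 2.24 RPKM in PTC11 and 3.86 in PTC12, against 0.928 in TTF1 and 4.07 in TTF4. Calb1 had 1.51 in PTC11 and 3.55 in PTC12, against 2.21 in TTF1 and 5.34 in TTF4. Calb1, with no H3K4me3, stood at percentile 96.9 in TTF1, the line in which Aqp3 stood at 27.9.

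Kcnj1 had 1.02 RPKM in PTC11 and 4.09 in PTC12, against 1.18 in TTF1 and 5.34 in TTF4, and Atp6v1b1 had 1.53, 3.92, 1.46 and 2.75 in the same order. Slc12a1 had 1.79 in PTC11 and 2.11 in PTC12, against 1.16 in TTF1 and 2.34 in TTF4. Slc12a1 varied least among the 8 genes with 4 values, and while it ranked at percentile 67.1 in PTC11 it ranked at 12.1 in PTC12 and 12.5 in TTF4. Umod had 0.968 in PTC11, 3.46 in PTC12 and 3.49 in TTF4. Slc12a3 had 1.57 in PTC11 and 0.777 in TTF1, the lowest of the genes in TTF1 but not in PTC11. The median percentile of the genes with a value was 42.1 in PTC11 and 51.2 in PTC12, against 48.4 in TTF1 and 58.9 in TTF4.

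**Figure D4:**
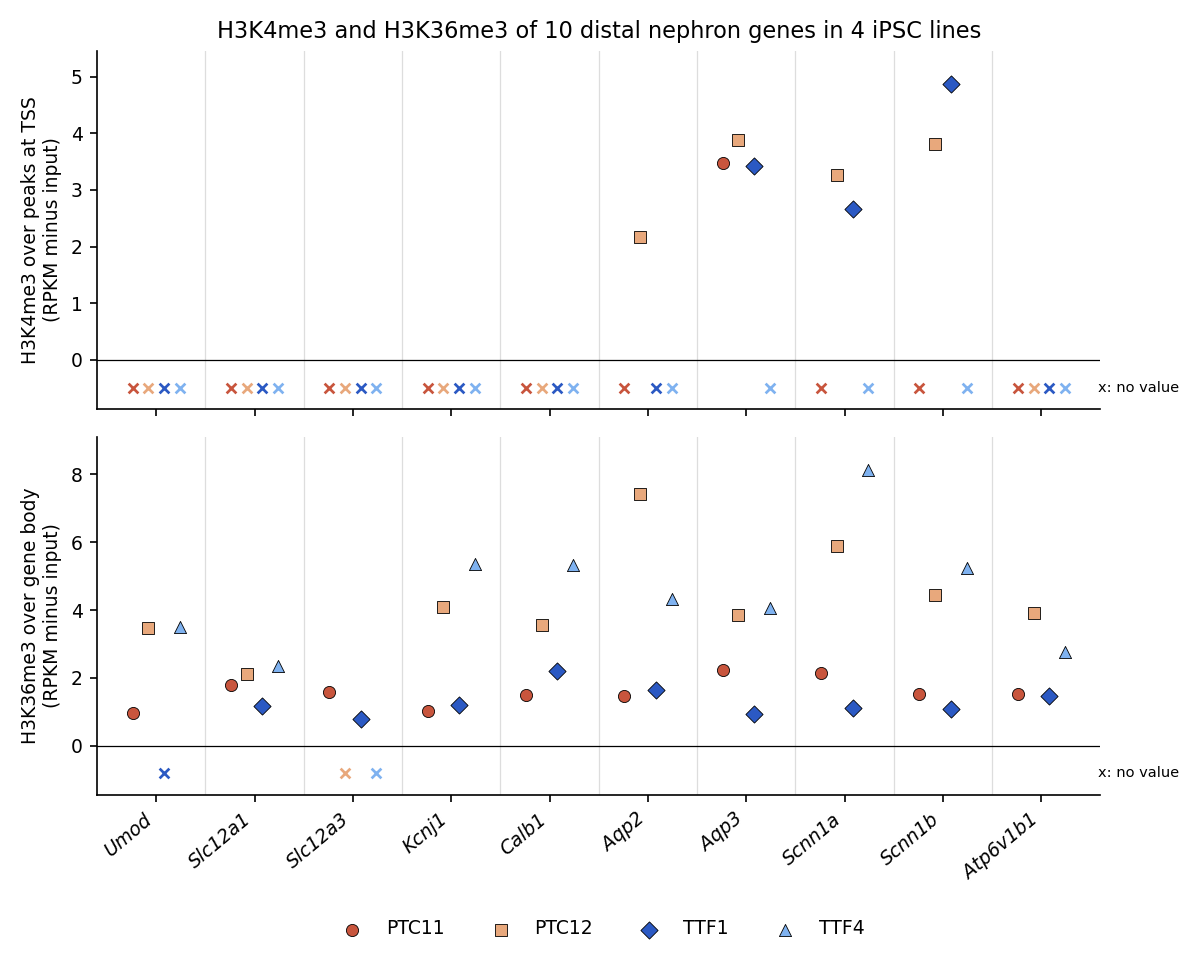
Points give H3K4me3 over peaks at the TSS (upper panel) and H3K36me3 over the gene body (lower panel) in RPKM minus input for each gene and line, and crosses below the zero line mark a line without a value. H3K4me3 appears in 1 to 3 lines of Aqp2, Aqp3, Scnn1a and Scnn1b only, and H3K36me3 is higher in PTC12 and TTF4 than in PTC11 and TTF1 for each of the 8 genes with 4 values.

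No difference in H3K36me3 between the origins was called for the 8 genes tested, where limma called 19 of all genes, or 0.112%, and 116 had an unadjusted p under 0.05. None of the 8 had an unadjusted p under 0.05. On the log2(RPKM + 1) scale, which understates the change of low genes, Calb1 was the most positive for TTF against PTC iPSCs, at 0.42 (95% confidence interval -1.78 to 2.61), and Aqp3 the most negative, at -0.34 (-2.35 to 1.66), with standard errors of 0.78 to 1.26 over the 8 genes. For the other 6 the difference lay between -0.28 (Aqp2) and 0.22 (Kcnj1). In 8 of 8 genes the larger gap between lines of 1 origin, up to 2.12 in Scnn1a, exceeded the difference between the means of the origins. That outcome was fixed in advance, because PTC12 and TTF4 lay above PTC11 and TTF1 in each of these genes. The same order held for 93.6% of all 17039 genes with 4 values. At this scaling the intervals reach more than 1 log2 unit either way for each gene. After quantile normalization between lines they were narrower, and Calb1 had a difference of 0.68 (95% confidence interval 0.051 to 1.32, unadjusted p = 0.0389 and adjusted p = 0.998 in limma), while the other 7 genes had an unadjusted p above 0.05.

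**Figure D5:**
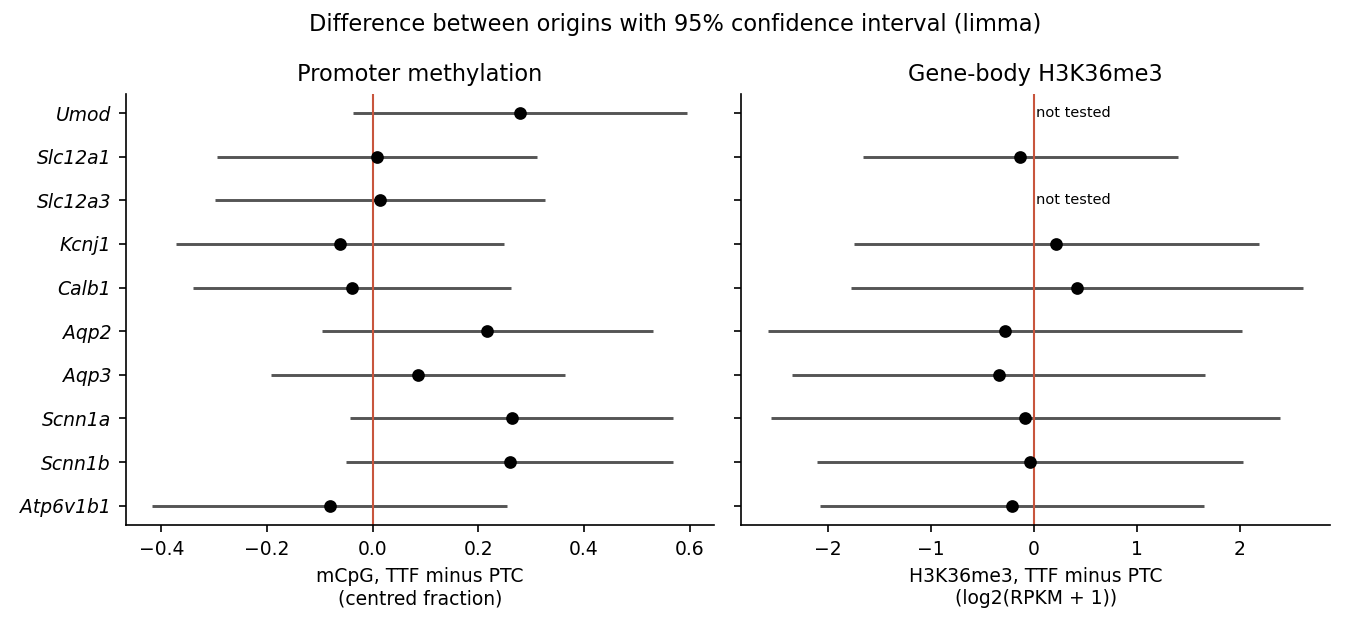
Points give the TTF minus PTC difference from limma for promoter methylation (left, centred fraction) and gene-body H3K36me3 (right, log2(RPKM + 1)), and lines give its 95% confidence interval with 2 lines per origin. Every interval crosses 0, and Umod and Slc12a3 were not tested for H3K36me3.

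A list of 44 other genes of the same segments gave a broader view. Of these, 12 had H3K4me3 in all 4 lines, 16 in some and 16 in none, and their median methylation was 0.502. The 12 marked in all lines had a median fraction of 0.0867 and the other 32 one of 0.555. By segment, all 4 lines carried H3K4me3 in 1 of 12 thick ascending limb genes, 5 of 10 genes of the distal convoluted and connecting tubule, 4 of 10 principal cell genes and 2 of 12 intercalated cell genes. In the same order, no line carried it in 4 of 12, 2 of 10, 4 of 10 and 6 of 12. Genes marked in at least 1 line were thus found in every segment. No gene of the 44 was called in limma for methylation (44 tested), H3K4me3 (12 tested) or H3K36me3 (32 tested). In the same order, 3, 0 and 0 had an unadjusted p under 0.05 in limma. Among all genes tested 2392 of 50657, 134 of 13709 and 116 of 17039 did. TTF4 had the highest methylation in 31 of 44, against 75.4% of all genes. After centring, TTF1 and TTF4 were the highest pair in 8 of the 44 and the lowest pair in 7, against 15.0% and 12.8% of all genes. In the order of segments above, they were the highest pair in 1, 1, 4 and 2 genes and the lowest in 2, 3, 1 and 1.

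The least methylated of them were regulators used in many tissues. Nedd4l, a ubiquitin ligase that removes the sodium channel from the membrane, had 0.0169 as the mean of 4 lines, Wnk1, a kinase that controls chloride cotransport, 0.0178, and Cnnm2, a magnesium transporter, 0.0371. Their mean H3K4me3 was 4.33, 6.05 and 5.54 RPKM, and with Car2, a carbonic anhydrase, at 5.53, Wnk1 and Cnnm2 were the highest in that mark. Wnk1, Hsd11b2, which protects the mineralocorticoid receptor from glucocorticoids, and Car2 had the highest mean H3K36me3, at 3.46, 3.65 and 5.38 RPKM, a rank by means in which PTC12 and TTF4 weigh most. In TTF1 these genes stood at percentiles 30.8, 23.6 and 30.9.

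The most methylated were Atp6v0a4, a proton pump subunit of intercalated cells, at 0.834, Slc8a1, a sodium calcium exchanger, at 0.813, and Avpr2, the vasopressin receptor that controls Aqp2, at 0.721. Slc8a1 and Avpr2 had no H3K4me3 in any line, and Atp6v0a4 had it in TTF1 alone, at 3.26 RPKM.

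A pair of the 10 genes can be set beside a relative that most cells use. Slc12a2, the cotransporter related to Slc12a1, has 230 CpGs within 1 kb of its TSS and fractions of 0.0139 in PTC11 and 0.0299 in PTC12, against 0.00835 in TTF1 and 0.0243 in TTF4. Its H3K4me3 was 3.38, 5.43, 6.67 and 3.12 RPKM in the same order, where Slc12a1 had none. Atp6v1b2, the widely used form of the Atp6v1b1 subunit, has 91 CpGs and fractions of 0.122 in PTC11 and 0.0727 in PTC12, against 0.154 in TTF1 and 0.328 in TTF4. Atp6v1b2 had 4.93, 6.45, 8.78 and 4.31 RPKM of H3K4me3. In each line the widely used relative was thus less methylated than its kidney counterpart and carried a mark that the latter lacked.

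The proximal tubule, the segment from which the PTC iPSCs came, served as a comparison. Of 22 proximal tubule genes, 3 had H3K4me3 in all 4 lines, 10 in some and 9 in none, and their median methylation was 0.565, against 0.590 for the 10 distal genes. After centring, TTF1 and TTF4 were the highest pair in 2 of the 22 and the lowest pair in 3, against 15.0% and 12.8% of all genes. None of the 22 was called in limma in any of the 3 assays. For methylation 1 had an unadjusted p under 0.05 in limma, against 2392 of all 50657 genes, and for either mark 0 did. Whether the proximal and the distal lists differ was not tested.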

How the data were processed

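Promoter CpG methylation (4 nanopore libraries) and H3K4me3, H3K36me3 and H3K27me3 ChIP-seq (4 libraries each) of the mouse iPSC lines were taken from 2 deposited tables of the whole series. For methylation the authors base called with Guppy, aligned to mm10 with minimap2 (2.17-r941), used Nanopolish to call CpGs, and deposited a fraction of methylated CpGs per gene, which is a mean over overlapping windows within 1 kb of the TSS. For the histone marks the authors aligned to mm10 with Bowtie2 (2.1.0), called peaks against input with MACS2 (2.0.10), and deposited RPKM minus input averaged over peaks per gene, found with bedtools (2.17.0), from 2 kb before to 3 kb after the TSS or over the gene body. Versions are those of the submitters' processing notes. Which genes can be compared therefore depends on peak calling in each library, and values missing in a line stayed missing.

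TTF and PTC lines were compared with limma (3.58.1, R 4.3.3), using lmFit and then eBayes with its variance trend, on the fraction minus the mean of the line, or on log2(RPKM + 1), over all genes with a value in 4 lines, with p-values adjusted by Benjamini-Hochberg over every gene tested and a threshold of 0.05. Where a gene had no variance, limma offset it from 0. CpGs within 1000 bp of the TSS were counted in GRCm38, where 54851 of 55144 genes matched to GENCODE M21 had the same coordinates as in the methylation table. On simulated data at the spread of the real lines, limma recovered 37.5% of 200 genes changed by 0.5 in methylation (50657 genes, 7 false calls) and 4% of 200 changed by 2 log2 units in H3K36me3 (17039 genes, 2 false calls). The simulation drew each gene and line independently. It therefore lacks the shifts that genes of a real line share, and its rates may not hold for the real data. Tables were handled with Python 3.11.15, pandas 2.3.3 and numpy 2.4.6, and plots drawn with matplotlib 3.10.9.

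The members and the lists of other genes were chosen with earlier results of these data known. The genes named were the 10 members and, of the wider distal list, any called gene, the 3 with the lowest and the 3 with the highest mean methylation, the 3 with the highest H3K4me3 and the 3 with the highest H3K36me3 among those with 4 values, and Slc12a2 and Atp6v1b2 as relatives. Alternatives were no centring, quantile normalization, no variance trend, a pseudocount of 0.1, missing values set to 0, a mean of at least 1 RPKM, and each line left out. Counts without TTF4 of H3K4me3 in every line and of TTF lines above PTC lines were added after the data were seen.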

Additional observations from a re-analysis of the deposited data

How the results depend on the processing

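No member was called under any alternative, with adjusted p from 0.164 to 1.00 for methylation and from 0.871 to 1.00 for H3K36me3 in limma. With H3K4me3 set to 0 where missing, 4 members could be tested and 0 were called, with 0 at an unadjusted p under 0.05. Umod, Aqp2, Scnn1a and Scnn1b were more methylated in TTF iPSCs under every alternative. In these genes no PTC line exceeded a TTF line, with centring or without it. Their direction was therefore fixed in advance without centring, without the trend and with a line left out. Only quantile normalization could have turned it, and there the differences were 0.269, 0.199, 0.239 and 0.258 in the same order. Without centring the methylation differences of Atp6v1b1, Calb1 and Kcnj1 turned to 0.00530, 0.0481 and 0.0248, and after quantile normalization those of Slc12a1 and Slc12a3 turned to -0.0280 and -0.0132. Leaving out each line gave -0.0825 to 0.253 for Aqp3, -0.318 to 0.154 for Atp6v1b1, -0.140 to 0.0154 for Kcnj1, -0.155 to 0.172 for Slc12a1 and -0.112 to 0.139 for Slc12a3. For H3K36me3 quantile normalization turned Aqp2, Atp6v1b1 and Scnn1b to 0.044, 0.022 and 0.10, and no member kept its direction with each line left out: Aqp2 -1.17 to 0.61, Aqp3 -1.04 to 0.35, Atp6v1b1 -0.70 to 0.26, Calb1 -0.074 to 0.91, Kcnj1 -0.55 to 0.99, Scnn1a -1.14 to 0.98, Scnn1b -0.84 to 0.76 and Slc12a1 -0.44 to 0.18. The cause was not tested.

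Over all genes limma called 2 for methylation, 0 without centring, 0 after quantile normalization, 1 without the trend, and 0 (without PTC12) to 1020 (without TTF1) with a line left out, with 227 without TTF4 and 5 without PTC11. Where it called 0, 1006 to 2438 genes had an unadjusted p under 0.05. It called 19 genes for H3K36me3 and 66 for H3K4me3. With a pseudocount of 0.1 these became 44 and 102, and both were 0 after quantile normalization, with missing values at 0, with a mean of at least 1 RPKM and without the trend, where 4 to 502 and 3 to 318 had an unadjusted p under 0.05. A line left out gave 1 (without TTF4) to 31 (without PTC11) and 59 to 108 (without TTF1). Members with H3K4me3 in every line rose from 0 to 1, Aqp3, without TTF4. Counting only values of at least 1 RPKM left 42 of 45 marked combinations of gene, mark and line, and 7 of 8 members with H3K36me3 in all lines.

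No paired analysis was possible because PTC and TTF lines share no replicate numbers. A line left out leaves the other line of its origin alone, with the spread taken from the other origin. With 2 lines per origin and no counts or coverage in the tables, precision rests on the spread between lines. Fractions for CpG-poor promoters such as Umod rest on few CpGs.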

Other observations

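The neighbour of Aqp2 was looked at after its values were seen. Aqp5, a water channel of glands and lung, starts 6304 bp beyond the end of Aqp2 and carried H3K4me3 in all 4 lines, with 3.43 RPKM in PTC11 and 5.81 in PTC12, against 5.08 in TTF1 and 2.76 in TTF4, where Aqp2 had a value in PTC12 alone. The Aqp5 promoter had methylated fractions of 0.218 in PTC11 and 0.251 in PTC12, against 0.376 in TTF1 and 0.551 in TTF4, each below that of Aqp2 in the same line. H3K36me3 over Aqp5 was 1.80 RPKM in PTC11 and 6.65 in PTC12, against 0.983 in TTF1 and 7.71 in TTF4.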
